A study of Mus musculus with 24 samples.

Results

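The GABA-A receptor subunits described here are Gabra2, Gabra3, Gabra4, Gabra5, Gabrb1, Gabrb2 and Gabrd, 7 of the 19 GABA-A receptor subunit genes of the mouse. The 7 genes were found by identifier in a hippocampal count table of 55471 genes, and all 7 passed the filter on low counts. The other 12 subunit genes served as comparison. The animals were female C57BL/6J mice between 3 and 6 months old from lines with floxed Crebbp, the gene of the coactivator CBP. CBP-ifKOs also carried the CaMKIIα-creERT2 transgene, whose recombinase is driven in forebrain excitatory neurons and removes CBP only after tamoxifen. Control littermates lacked that transgene. Mice of both genotypes received 5 intragastric doses of tamoxifen on alternate days, so every group shared the drug. They then lived in standard cages (SC) or in an enriched environment (EE), a large box with company and changing objects, with 3 mice in each of the 4 groups and the hippocampus of each mouse sequenced in 2 runs. Interneurons and glia in the CBP-ifKO tissue still held intact Crebbp, since the driver is not active in them.

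GABA-A receptors are chloride channels built from a ring of subunits and carry most fast inhibition in the brain. Receptors with α2 or α3 and a γ subunit gather opposite GABA terminals and carry brief synaptic currents, whereas receptors with α4 and δ, or with α5, lie largely outside the synapse and carry a steady, tonic current. In the hippocampus α5 is known for its high level in pyramidal cells of CA1 and CA3, and α4 and δ for theirs in dentate granule cells. The β subunits bind GABA together with α and are found in both kinds of receptor.

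The libraries of control littermates held between 26874015 and 27971488 counts and those of CBP-ifKOs between 28582210 and 37448388. All CBP-ifKO counts were even, whereas control counts were even or odd. Whether reads entered these libraries more than once was not tested, and if they did, the CBP-ifKO totals and the limit below are off by that factor. Halving the CBP-ifKO counts changed no call on the 7 subunits. Levels are given in CPM, counts scaled to a common library size with TMM factors. The limit that a count of 0 allows, 3 counts, came to 0.0801 to 0.112 CPM by library and covers counting error only. The 7 subunits lay far above it, with between 475 and 10672 counts per library. As a check of the labels, Crebbp had between 69.6 and 81.9 CPM in control littermates and between 44.5 and 51.6 CPM in CBP-ifKOs. Reads on Esr1, whose sequence the transgene carries, were between 3.48 and 5.82 CPM in control littermates and between 67.0 and 81.7 CPM in CBP-ifKOs. The EE control replicate 1 stood apart in choroid plexus markers, with a summed level of 1253 CPM against 35.2 to 62.7 CPM in the other 11 mice. Without it, Gabra5 and Gabrd were still called lower in CBP-ifKOs housed in EE.

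Most subunit genes stand in clusters on the GRCm38 genome. Gabra2, Gabra4 and Gabrb1 lie together on chromosome 5 with Gabrg1, at 70957597 to 71095849, 71569749 to 71658308 and 71658113 to 72149037. Gabra4 and Gabrb1 are transcribed away from each other from overlapping ends, and their exons share 46 bases on opposite strands. Gabra5 lies on chromosome 7 from 57407672 to 57510059, beside Gabrg3, and shares 148 exonic bases with Gm9962 on the opposite strand. Whether counting used the strand is not given in the sources used here, so reads in these stretches cannot be assigned with certainty. Gabrb2 lies on chromosome 11 from 42419757 to 42629028 beside Gabra6, and Gabra3 on the X chromosome from 72432681 to 72656848. Gabrd stands alone on chromosome 4 from 155384980 to 155398112, with 1184 protein-coding genes between it and the preceding subunit gene.

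RefSeq promoter sequences of GRCm38.p6 were matched for 6 of the 7 subunits, Gabrd being the one without, and gave 10 start sites. The 250 bases before a start site are shown 5′ to 3′ for Gabra5, the subunit with the clearest difference between genotypes, for Gabra2, its neighbour in level, and for the most upstream of the Gabrb2 starts, the subunit that varied most between mice. Capitals mark a TATA box match. The Gabra5 stretch is chr7:57510060-57510309 on the minus strand, outside annotated exons, the Gabra2 stretch is chr5:71095850-71096099 on the minus strand, outside annotated genes, and the Gabrb2 stretch is chr11:42420190-42420439 on the plus strand, in an intron of a longer Gabrb2 transcript.
Gabra5: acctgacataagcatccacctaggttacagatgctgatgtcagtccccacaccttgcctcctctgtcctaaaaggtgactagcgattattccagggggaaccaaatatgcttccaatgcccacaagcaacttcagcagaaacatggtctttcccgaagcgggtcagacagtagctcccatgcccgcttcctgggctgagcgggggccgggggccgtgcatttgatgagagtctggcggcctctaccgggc
Gabra2: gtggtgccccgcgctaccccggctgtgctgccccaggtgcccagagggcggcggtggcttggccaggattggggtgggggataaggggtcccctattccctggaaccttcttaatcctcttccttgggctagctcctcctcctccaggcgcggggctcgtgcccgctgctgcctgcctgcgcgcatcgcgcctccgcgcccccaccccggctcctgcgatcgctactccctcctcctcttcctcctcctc
Gabrb2: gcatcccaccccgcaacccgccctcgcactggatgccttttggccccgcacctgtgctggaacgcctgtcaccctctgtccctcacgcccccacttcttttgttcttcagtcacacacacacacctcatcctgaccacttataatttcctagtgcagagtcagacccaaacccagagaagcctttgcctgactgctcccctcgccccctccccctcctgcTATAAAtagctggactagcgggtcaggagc

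Motifs were searched on both strands in all 10 stretches. CRE is the site of CREB, the factor for which CBP is named. The CRE letters TGACGTCA were found in 0 of the 10 stretches, against 1.55% of 32851 promoters of the same length. The shorter core TGACG, which also lies within the CRE, was found in 0 of the 10 and in 17.8% of all promoters. AP-1 letters (TGANTCA, 6.75% of all promoters) and EGR letters (GCGTGGGCG, 0.536%) were also found in 0 of the 10. TATA box letters (TATAAA) were found in 3 of the 10, at both Gabra3 starts, whose stretches share the match, and at the Gabrb2 start 30 bases before it, and in 12.4% of all promoters. The GC content of the printed stretches was 56.4% for Gabra5, 70.0% for Gabra2 and 58.8% for Gabrb2.

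**Figure D1:**
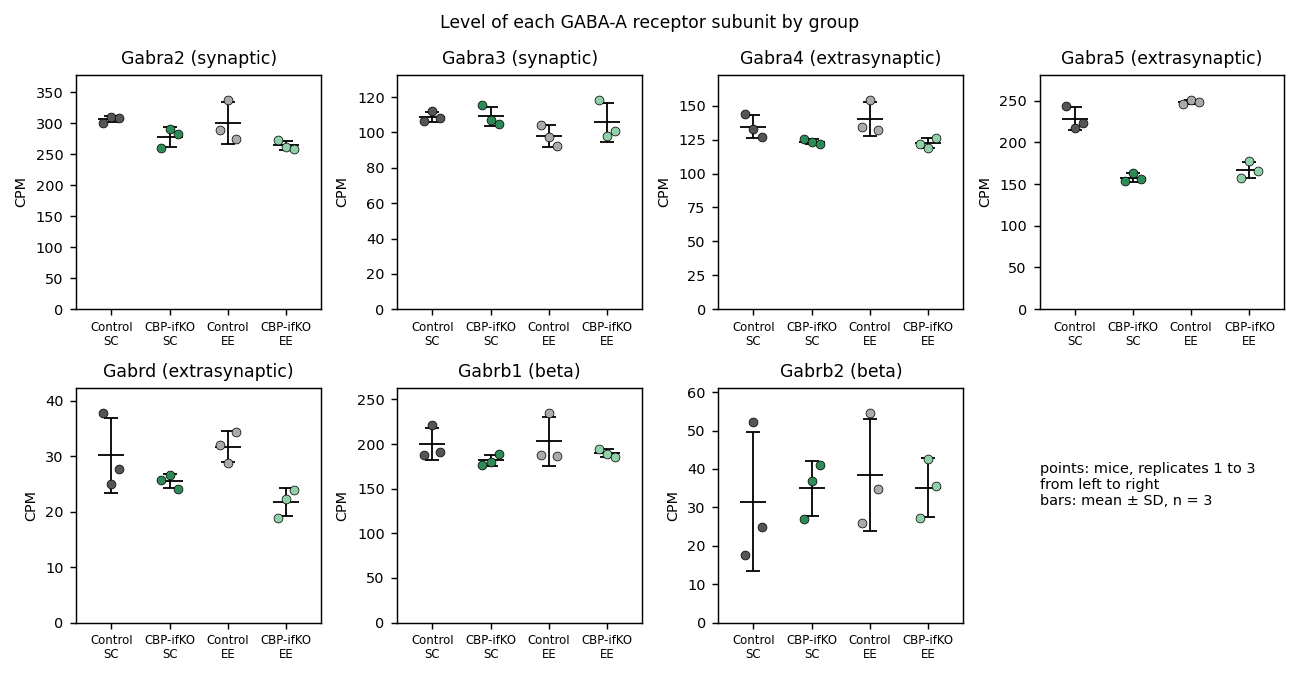
Level of each of the 7 subunits in CPM (linear axis from 0) in every mouse, by group, with points for the 3 replicates of a group from left to right and bars for the mean ± SD. Gabra5 sits between 217 and 251 CPM in control littermates and between 153 and 177 CPM in CBP-ifKOs, and Gabrb2 spreads widest within the groups.

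Levels between genes were compared per kilobase of exonic sequence. In SC control littermates the order of the mean CPM per kilobase was Gabra5 (76.7 ± 4.68, SD, n = 3), Gabra2 (40.1 ± 0.677), Gabra3 (27.7 ± 0.770), Gabra4 (22.1 ± 1.45), Gabrb1 (14.5 ± 1.32), Gabrd (10.5 ± 2.34) and Gabrb2 (4.96 ± 2.87). The same order of means was found in the other 3 groups. Neighbours in this order did not overlap between mice of a group, except Gabra3 and Gabra4 in EE control littermates (25.0 ± 1.52 and 23.1 ± 2.02) and Gabrd and Gabrb2 in EE CBP-ifKOs (7.57 ± 0.899 and 5.53 ± 1.20). An extrasynaptic subunit, Gabra5, headed the order in each group, and Gabra4 and Gabrd stood below both synaptic α subunits.

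Gabra5, which encodes α5, the tonic subunit of pyramidal cells, was lower in CBP-ifKOs in both housings. In SC the control littermates had 243.8, 217.1 and 223.5 CPM, and the CBP-ifKOs had 153.2, 163.5 and 155.4 CPM. In EE the control littermates had 245.7, 251.0 and 248.8 CPM, and the CBP-ifKOs had 157.2, 177.1 and 165.5 CPM. In both housings each CBP-ifKO lay below each control littermate. The log2 fold change was -0.54 in SC (SE 0.058, adjusted p = 4.47e-04, edgeR quasi-likelihood test) and -0.57 in EE (SE 0.061, adjusted p = 6.96e-04, same test), or 31.0% and 32.5% lower. Averaged over both housings it was -0.56 (SE 0.041, adjusted p = 3.62e-07, same test). Over the alternatives the adjusted p ranged up to 0.00574 in SC and 0.0100 in EE, and each alternative kept the call.

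Gabrd encodes δ, which pairs with α4 in dentate granule cells. In SC the control littermates had 37.82, 25.05 and 27.73 CPM, and the CBP-ifKOs had 25.71, 26.65 and 24.15 CPM. These groups overlapped, and control replicate 1 was the high value. In EE the control littermates had 32.00, 28.88 and 34.38 CPM, and the CBP-ifKOs had 18.91, 22.37 and 23.97 CPM, so that the groups stood apart. Gabrd was called lower in EE, with a log2 fold change of -0.54 (SE 0.099, adjusted p = 0.0121, edgeR), and was not called in SC, at -0.25 (SE 0.125, adjusted p = 0.299). The test of the difference between the housings gave a log2 interaction of -0.30 (SE 0.178, unadjusted p = 0.110, adjusted p = 0.9998, edgeR), so the changes of Gabrd in SC and EE were not shown to differ. The EE call was lost without EE control replicate 3 (-0.47, adjusted p = 0.0645). In SC the change went from -0.05 without control replicate 1 to -0.36 without control replicate 2. Averaged over housings Gabrd was called lower (-0.40, SE 0.089, adjusted p = 0.00622, edgeR), and this call held in all 19 alternatives run, with values between -0.46 and -0.30.

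Gabra4, which encodes α4, the partner of δ, showed small differences. In SC the control littermates had 144.1, 133.1 and 126.7 CPM against 125.3, 123.0 and 121.7 CPM in CBP-ifKOs. In EE the control littermates had 134.0, 154.4 and 132.3 CPM against 121.7, 119.1 and 126.2 CPM in CBP-ifKOs. No CBP-ifKO reached the lowest control littermate in either housing. Its log2 fold change was -0.13 in SC (SE 0.058, adjusted p = 0.242) and -0.19 in EE (SE 0.069, adjusted p = 0.155), neither of them called by edgeR, and -0.16 averaged over housings (SE 0.046, adjusted p = 0.0237), which was called.

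Gabra2, which encodes the α2 subunit of synapses on pyramidal cells, behaved much like Gabra4 in size. In SC the control littermates had 300.6, 309.9 and 309.2 CPM and the CBP-ifKOs 259.6, 291.2 and 282.6 CPM. In EE they had 289.5, 338.1 and 274.0 CPM and 272.9, 261.7 and 258.6 CPM, with the groups apart by little. The difference was -0.14 in SC (SE 0.055, adjusted p = 0.161, edgeR) and -0.18 in EE (SE 0.076, adjusted p = 0.231) on the log2 scale. Averaged over housings Gabra2 was called lower, at -0.16 (SE 0.048, adjusted p = 0.0297). Leaving out any of 5 mice lost the averaged call of Gabra2 (adjusted p up to 0.0826) and any of 4 mice that of Gabra4 (up to 0.0651). Over all alternatives the averaged value stayed between -0.19 and -0.12 for Gabra2 and between -0.18 and -0.12 for Gabra4. These mice were SC control replicate 3, SC CBP-ifKO replicates 1 and 3 and EE CBP-ifKO replicates 2 and 3 for Gabra2, and SC control replicate 1, SC CBP-ifKO replicates 2 and 3 and EE CBP-ifKO replicate 2 for Gabra4.

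Gabra3 encodes the other synaptic α subunit considered, α3, and did not pass the test in any comparison. In SC the control littermates had 106.2, 112.1 and 108.1 CPM and the CBP-ifKOs 115.3, 107.2 and 105.0 CPM. In EE the values were 104.2, 97.48 and 92.28 CPM in control littermates and 118.5, 98.01 and 101.0 CPM in CBP-ifKOs. The genotypes overlapped in both housings, with log2 differences of 0.00 in SC (SE 0.056, adjusted p = 0.976) and 0.12 in EE (SE 0.080, adjusted p = 0.447) by edgeR. A test of Gabra3 against Gabra5 was not made.

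Of the β subunits, Gabrb1 had 187.6, 221.0 and 191.4 CPM in SC control littermates and 176.3, 179.6 and 188.9 CPM in SC CBP-ifKOs. In EE it had 187.7, 234.8 and 186.9 CPM in control littermates and 194.5, 188.8 and 186.0 CPM in CBP-ifKOs. Control replicate 2 was the highest mouse in both housings and the genotypes overlapped. The log2 differences were -0.14 in SC (SE 0.067, adjusted p = 0.266) and -0.09 in EE (SE 0.084, adjusted p = 0.617), and the second turned to 0.02 without EE control replicate 2.

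Gabrb2, which encodes β2, varied 3.10-fold between mice, more than any other of the 7 subunits. In SC it had 17.63, 52.17 and 24.79 CPM in control littermates and 26.96, 36.76 and 41.10 CPM in CBP-ifKOs. In EE it had 25.94, 54.59 and 34.75 CPM in control littermates and 27.28, 42.49 and 35.66 CPM in CBP-ifKOs. Both control replicates 2 lay above all CBP-ifKOs, and SC control replicate 1 below them. The difference was 0.15 in SC (SE 0.296, adjusted p = 0.825) and -0.12 in EE (SE 0.223, adjusted p = 0.822, edgeR). A single library decided the value: without SC control replicate 2 Gabrb2 was called higher in CBP-ifKOs (0.72, adjusted p = 0.0244), and without SC control replicate 1 it was at -0.13.

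**Figure D2:**
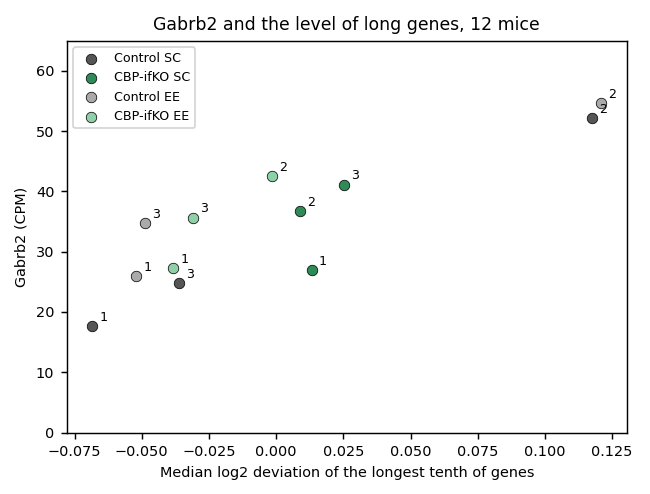
Gabrb2 in CPM (linear axis from 0) against the median log2 deviation of the longest 10% of genes in each of the 12 mice, with the replicate number beside each point. Replicate 2 of both control groups lies at the upper right, at 0.12 and above 50 CPM, and SC control replicate 1 at the lower left.

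The mice with the most Gabrb2 also had the highest level of long transcripts. In SC and EE control replicates 2, the 1185 genes with the most exonic bases had a median deviation of 0.12 from their mean over all mice on the log2 scale, whereas the other 10 mice lay between -0.07 and 0.03. SC control replicate 1, the mouse with the least Gabrb2, was at -0.07 and had in turn the highest Gabrd. The median deviation of the GC-richest 10% of genes was 0.10 in this mouse and 0.10 in EE control replicate 3, which had the next highest Gabrd and without which the EE call of Gabrd was lost, and lay between -0.07 and 0.05 in the other 10 mice. Gabrd had the highest GC content of the 7 subunits, 54.8% of its longest transcript against 38.4% to 47.1% in the others. Gabrb2 has 6360 exonic bases, fewer than Gabrb1 (13838) and Gabra2 (7640), which varied only 1.33-fold and 1.31-fold between mice. The part of length and GC content in these values was not tested.

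In all, 1 of the 7 subunits was called lower in SC, where 4.02% of all genes tested were, and 2 in EE, where 3.53% were. Averaged over housings 4 were called lower, against 10.3% of all genes. None was called higher by edgeR or DESeq2. At an unadjusted p under 0.05 there were 3 subunits in SC and 4 in EE, beside 20.5% and 19.6% of all genes tested. Each CBP-ifKO lay below each control littermate for 3 subunits in SC, against 13.8% of all genes, and for 4 in EE, against 13.9%. The median log2 fold change of the 7 subunits was -0.14 in SC and -0.18 in EE, beside 0.00 and 0.01 over all genes tested.

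**Figure D3:**
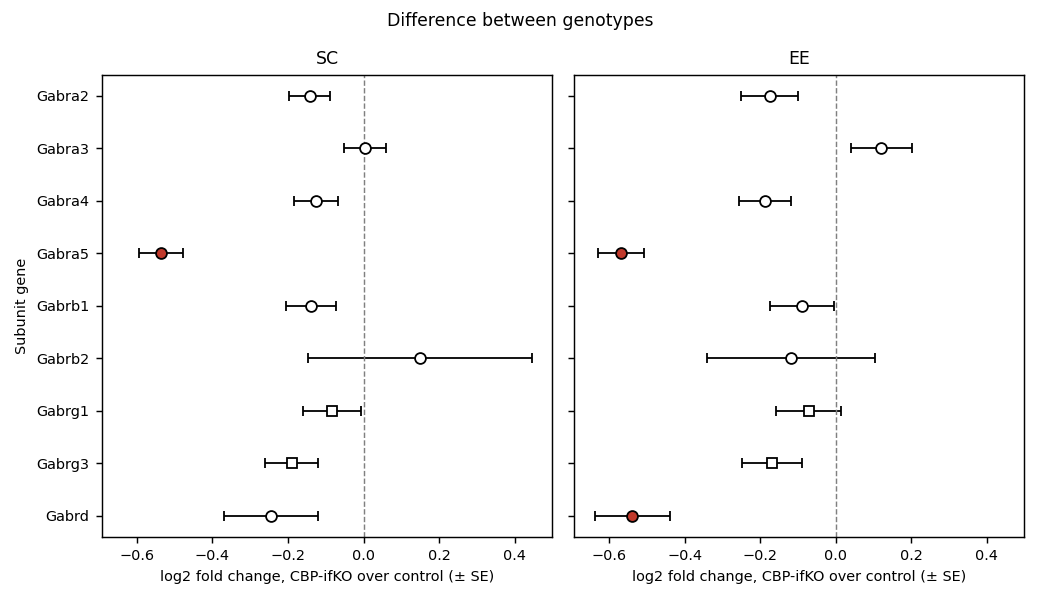
Log2 fold change of CBP-ifKOs over control littermates with its SE for the 7 subunits described and Gabrg1 and Gabrg3 in SC (left) and EE (right). Circles are the 7 subunits and squares the γ subunits, and a filled symbol passed edgeR's test. Gabra5 lies near -0.55 on both sides, Gabrd is filled on the EE side only, and the difference between its sides did not pass the test.

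Among the other 12 subunit genes, 7 were tested in SC and 8 in EE, and 0 were called in either. At an unadjusted p under 0.05 there were 2 in SC and 1 in EE, with the same 20.5% and 19.6% of all genes as background. Gabrg3, the γ subunit gene beside Gabra5 on chromosome 7, was at -0.19 in SC (SE 0.071, adjusted p = 0.149) and -0.17 in EE (SE 0.080, adjusted p = 0.275) and was called lower only when both housings were averaged (-0.18, adjusted p = 0.0195, edgeR). Gabrg1 stood at -0.08 and -0.07 (SE 0.076 and 0.086). Gabrq, Gabrr2 and, in EE, Gabre passed the filter at levels of 2.04 CPM or less in every mouse. Gabrq was at -0.03 in SC and -0.06 in EE, Gabrr2 at 0.66 (adjusted p = 0.235) and 0.04, and Gabre at -0.91 in EE (adjusted p = 0.249).

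The makeup of the 4 α subunits described, as shares of the sum of their CPM per kilobase, moved with Gabra5. In SC control littermates Gabra5 made up 47.6%, 44.5% and 45.8% of it, and in SC CBP-ifKOs 38.0%, 39.1% and 38.4%. In EE its shares were 48.9%, 47.2% and 50.8% in control littermates and 38.1%, 43.0% and 40.9% in CBP-ifKOs. In both housings each CBP-ifKO lay below each control littermate. The share of Gabra3 was 16.7% ± 0.857 (SD, n = 3) in SC control littermates and 20.3% ± 1.25 in SC CBP-ifKOs, and 14.6% ± 0.956 and 19.6% ± 1.94 in EE. The share of Gabra2 was 24.1% ± 1.06 and 26.5% ± 1.20 in SC, and 23.0% ± 1.57 and 25.1% ± 0.534 in EE. The share of Gabra4 was 13.3% ± 0.537 and 14.8% ± 0.414 in SC, where each CBP-ifKO lay above each control littermate, and 13.5% ± 0.628 and 14.6% ± 0.578 in EE, where the groups overlapped. Shares of one total are tied to each other, so a lower share of Gabra5 raises the others by construction.

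**Figure D4:**
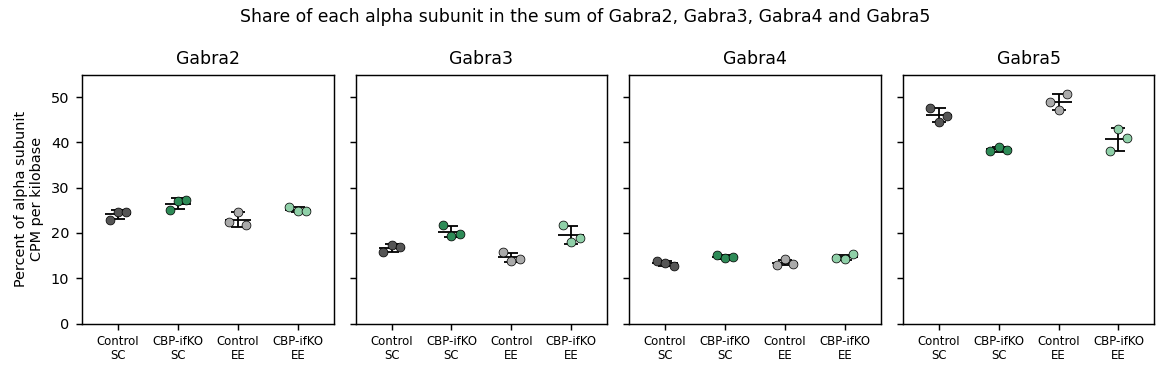
Share of Gabra2, Gabra3, Gabra4 and Gabra5 in the sum of their CPM per kilobase, in percent (axis from 0), in every mouse by group, with bars for the mean ± SD (n = 3). Gabra5 lies between 44.5% and 50.8% in control littermates and between 38.0% and 43.0% in CBP-ifKOs.

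Extrasynaptic and synaptic subunits were set against each other in each mouse as the mean log2 CPM of Gabra4, Gabra5 and Gabrd minus that of Gabra2 and Gabra3, without a test. In SC the control littermates had -0.70, -1.05 and -0.99, and the CBP-ifKOs -1.13, -1.12 and -1.16. In EE they had -0.77, -0.81 and -0.61, and -1.33, -1.04 and -1.02. Each CBP-ifKO thus lay lower than each control littermate of its housing, by 0.22 on average in SC and 0.40 in EE, where the pooled SD was 0.133 and 0.144. With Gabra5 put in neither kind the SC groups overlapped (control mean -1.53 ± 0.223 and CBP-ifKO mean -1.63 ± 0.031, SD, n = 3) and the EE groups stayed apart (-1.36 ± 0.110 and -1.70 ± 0.184). Of the 3 extrasynaptic members, Gabra5 was called in both housings, Gabrd in EE and Gabra4 in neither. Of the synaptic members neither was called in a single housing. Averaged over housings, the 3 extrasynaptic members and the synaptic Gabra2 were called lower, with the same -0.16 for Gabra2 and Gabra4.

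Housing was tested within each genotype and, as an interaction, between them, to ask whether EE moved the subunits and whether it needed CBP. Of the 7 subunits 0 were called for EE against SC in control littermates, where 0% of all genes were called, 0 in CBP-ifKOs, where 0.011% were, and 0 for the interaction, where 0% were. At an unadjusted p under 0.05 there was 1 subunit in control littermates, against 4.21% of all genes, 0 in CBP-ifKOs, against 8.59%, and 0 for the interaction, against 3.15%, and DESeq2 also called 0 in each. The 1 subunit was Gabra5 in control littermates, whose EE mice all lay above the SC mice, with a log2 difference of 0.12 (SE 0.058, unadjusted p = 0.0485, adjusted p = 0.999). In CBP-ifKOs its difference was 0.08 (SE 0.058) and the groups overlapped. Gabra3 was lower in every EE control littermate than in any SC one (-0.15, SE 0.072, unadjusted p = 0.0525). Gabrd was lower in every EE CBP-ifKO than in any SC one (-0.23, SE 0.126, unadjusted p = 0.0882), while its difference in control littermates was 0.07 (SE 0.126). Groups that stood apart in this way, in either direction, were thus found for 2 of the 7 subunits in control littermates and 1 in CBP-ifKOs, against 9.11% and 15.9% of all genes.

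**Figure D5:**
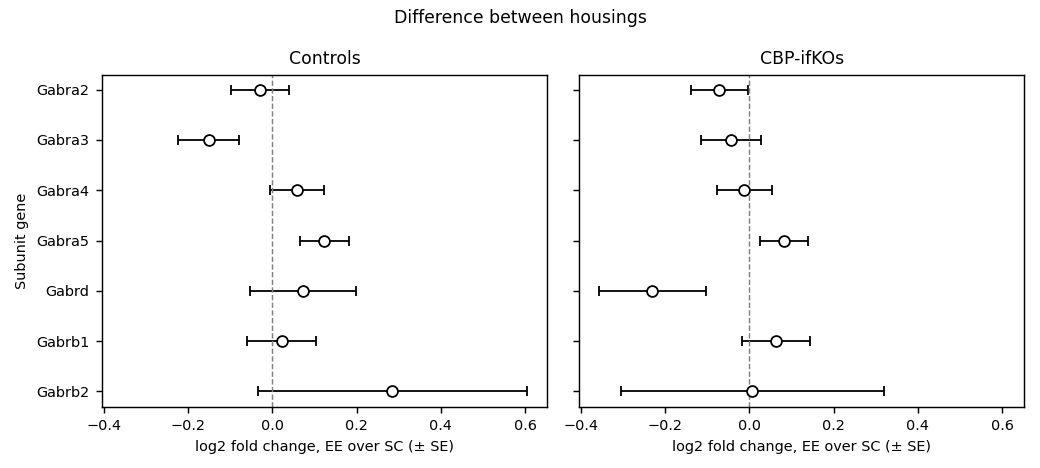
Log2 fold change of EE over SC with its SE for the 7 subunits in control littermates (left) and CBP-ifKOs (right). All symbols are open, since no subunit passed edgeR's test, and the SE of Gabrb2 is the widest, 0.32 and 0.31.

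The SE of the housing differences lay between 0.058 and 0.126 for the subunits other than Gabrb2, so small changes in housing were not detectable with 3 mice a group. Values for Gabra2 were -0.03 in control littermates and -0.07 in CBP-ifKOs, for Gabra4 0.06 and -0.01, for Gabrb1 0.02 and 0.06, and for Gabrb2 0.29 and 0.01. Interaction values lay between -0.30 for Gabrd and 0.11 for Gabra3. The sign of several of these values changed when 1 mouse was left out.

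The proteins that place the receptors at the membrane were followed as a list of 22 genes, of which 21 were tested. In SC 2 were called lower and 0 higher, and in EE also 2 lower and 0 higher, where 4.02% and 3.53% of all genes were called lower. Nsf, an ATPase of membrane fusion that takes part in receptor trafficking, was lower in both housings, at -0.25 in SC (SE 0.044, adjusted p = 0.00808) and -0.33 in EE (SE 0.051, adjusted p = 0.00505, edgeR). Iqsec3, an exchange factor that binds gephyrin, was called in SC (-0.23, SE 0.047, adjusted p = 0.0149) and had -0.22 in EE (SE 0.065, adjusted p = 0.0807). Shisa7, an auxiliary subunit of GABA-A receptors, was called in EE (-0.40, SE 0.068, adjusted p = 0.00784) and had -0.23 in SC (SE 0.063, adjusted p = 0.0537). The housings were not shown to differ for either gene, with an unadjusted interaction p of 0.969 for Iqsec3 and 0.0771 for Shisa7 (edgeR). Averaged over housings 6 were called lower, against 10.3% of all genes, and 0 higher. Among the 6 were Nsf (-0.29, adjusted p = 1.04e-05), Shisa7 (-0.32, adjusted p = 2.34e-04) and Iqsec3 (-0.23, adjusted p = 6.27e-04, edgeR). The median over the list was -0.06 in SC and -0.08 in EE.

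Chloride transport, which sets the direction of the GABA current, was represented by a list of 6 genes, not all of which encode transporters. Car7, a neuronal carbonic anhydrase, was the only 1 called in either housing, where 4.02% of all genes were called lower in SC and 3.53% in EE. It was at -0.67 in SC (SE 0.106, adjusted p = 0.00437) and -0.77 in EE (SE 0.082, adjusted p = 6.69e-04). Slc12a5, the chloride exporter KCC2, was called lower when both housings were averaged (-0.16, SE 0.036, adjusted p = 0.00529). Of 9 genes for making, packaging, taking up and breaking down GABA, 0 were called in SC or EE by edgeR. At an unadjusted p under 0.05 there was 1 in SC and 0 in EE. Aldh5a1 was called higher in the average (0.13, adjusted p = 0.0356, edgeR), where 1211 of 18251 genes tested were called higher. Of 6 genes of the metabotropic GABA-B receptor 0 were called in SC or EE, with 3 and 1 at an unadjusted p under 0.05. Over all genes the share at an unadjusted p under 0.05 was 20.5% in SC and 19.6% in EE, here as for the 9 genes above. In the average 3 were lower, against 10.3% of all genes, which were Gabbr2 (-0.16), Kctd12b (-0.34) and Kctd16 (-0.33). For housing and the interaction 0 genes of these lists were called.

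Markers of the cells that carry these subunits moved with genotype as well. In bulk tissue fewer cells of a type and less RNA per cell cannot be told apart. Of 6 markers of CA1 pyramidal cells, a main site of Gabra5, 4 were called lower in SC and the same number in EE, and their summed level was 731 to 782 CPM in SC control littermates, 525 to 567 CPM in SC CBP-ifKOs, 716 to 774 CPM in EE control littermates and 489 to 570 CPM in EE CBP-ifKOs. Those called in both housings were Wfs1 (-0.719 and -0.999), Fibcd1 (-0.39 and -0.62), Spink8 (-0.65 and -0.48) and Mpped1 (-0.40 and -0.35). Of 6 CA3 markers 1 was called lower in each housing, Nectin3 in SC (-0.37) and Lhfpl1 in EE (-1.93), with sums of 188 to 207 and 160 to 178 CPM in SC and 197 to 217 and 179 to 199 CPM in EE. Of 6 CA2 markers 4 and 3 were called lower, led by Rgs14 (-1.10 and -1.24), with sums of 262 to 284 and 161 to 175 CPM in SC and 279 to 291 and 170 to 181 CPM in EE.

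For dentate granule cells, a main site of Gabra4 and Gabrd, 2 of 8 markers were called lower and 1 higher in SC, and 3 lower in EE. C1ql2 (-1.60 and -1.91) and Tdo2 (-1.31 and -1.24) were lower in both housings, Dsp lower in EE (-0.56) and Lct higher in SC (0.56). The summed level was 468 to 504 CPM in SC control littermates, 436 to 484 CPM in SC CBP-ifKOs, 440 to 528 CPM in EE control littermates and 406 to 426 CPM in EE CBP-ifKOs. Of 12 interneuron markers 2 were called lower in SC, Calb2 (-0.65) and Sst (-0.35), and 0 in EE. For this and the other marker lists, the shares of all genes called lower were 4.02% in SC, 3.53% in EE and 10.3% in the average. Those at an unadjusted p under 0.05 were 20.5% in SC and 19.6% in EE. Genes called higher were 264 of 17532 tested in SC, 182 of 17625 in EE and 1211 of 18251 in the average. In EE 3 interneuron markers had an unadjusted p under 0.05, of which Calb2 and Sst had negative values and Vip a positive one (0.25, adjusted p = 0.145). Averaged over housings Vip was called higher (0.21, adjusted p = 0.0361) and Calb2 and Sst lower, by edgeR. The interneuron sums were 1051 to 1126 and 970 to 1032 CPM in SC and 1074 to 1161 and 1009 to 1061 CPM in EE. No marker of these lists was under 0.2 CPM in all 12 mice. Of 6 astrocyte markers 0 were called in SC or EE by edgeR, with 1 at an unadjusted p under 0.05 in each, and Slc1a3 was called lower in the average (-0.21, adjusted p = 0.0173). Astrocyte sums were 1536 to 1707 and 1476 to 1500 CPM in SC, and 1493 to 1551 and 1340 to 1416 CPM in EE, control littermates first. Of 6 microglia markers 0 were called in SC or EE, with 1 and 2 at an unadjusted p under 0.05, and Cx3cr1 (-0.17) and Csf1r (-0.12) were called lower in the average. Microglia sums were 321 to 331 and 293 to 318 CPM in SC, and 305 to 338 and 289 to 299 CPM in EE. Astrocyte, microglia and interneuron sums thus stood apart by genotype, lower in CBP-ifKOs, in both housings. Of the 6 astrocyte markers, however, only 4 had negative values in SC and 3 in EE, while all 6 microglia markers were negative in each housing. Of 6 oligodendrocyte markers 0 were called in SC, in EE or in the average, with 0 at an unadjusted p under 0.05, and their sums overlapped. Kdr, 1 of 5 endothelial markers, was lower in SC (-0.43), Ttr, 1 of 4 tested choroid plexus markers, in SC (-1.70), and Prkcd, 1 of 6 thalamus markers, in EE (-0.50). Averaged over housings Kdr, Ttr and Prkcd were lower and the thalamus marker Slc17a6 was higher (0.47, adjusted p = 0.0274). Endothelial sums were 161 to 167 and 137 to 151 CPM in SC and 139 to 159 and 138 to 148 CPM in EE, choroid plexus sums 47.5 to 53.4 and 35.5 to 38.7 CPM in SC and 35.2 to 1253 and 36.2 to 62.7 CPM in EE, and thalamus sums overlapped in both housings. For the interaction 0 genes of the marker lists were called by edgeR, where 0% of all genes were called. A call in 1 housing alone thus does not show that the housings differ. At an unadjusted p under 0.05 for the interaction there were 3 of 8 dentate granule cell markers and 2 of 6 CA3 markers. There was also 1 of 6 for each of CA1, astrocytes and microglia, and 0 in the other marker lists, against 3.15% of all genes. The part of cell makeup in the changes of the subunits was not tested.

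For each subunit the genes with the most similar log2 CPM over the 12 mice were named by Pearson's r among 11846 genes with a mean of at least 5 CPM, as a description without a test. The mice differ in genotype, depth and base composition together, so a high r can come from any of these. Gabra5 was closest to Cabp7, a calcium-binding protein (r = 0.989), and Lrrc10b (r = 0.989), whose log2 fold changes between genotypes were -0.51 and -0.75 in SC and -0.60 and -0.70 in EE. Gabrd was closest to Ier5l (r = 0.973) and Rtn4r, the Nogo receptor (r = 0.964), with -0.49 and -0.16 in SC and -0.79 and -0.34 in EE. Gabra2 was closest to Grm5, a metabotropic glutamate receptor (r = 0.953), and Vstm2a (r = 0.941), and Gabra4 to Qrich1 (r = 0.946) and Fam49a (r = 0.936). Gabra3 was closest to Tra2a (r = 0.929) and L3mbtl3 (r = 0.919), and Gabrb1 to Osbpl8 (r = 0.947) and Ntrk3, a neurotrophin receptor (r = 0.942). Gabrb2 was closest to Faxc (r = 0.975) and Zbtb37 (r = 0.966). Among the subunits themselves r was 0.786 for Gabra4 with Gabra5, 0.774 for Gabra5 with Gabrd, 0.742 for Gabra2 with Gabrb1 and 0.730 for Gabra2 with Gabra4. It was 0.662 for Gabra4 with Gabrd, 0.648 for Gabra2 with Gabra5, 0.634 for Gabra4 with Gabrb1 and 0.604 for Gabrb1 with Gabrb2, and lay between -0.469 and 0.465 for the other pairs.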

How the data were processed

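Hippocampal RNA of 12 mice was read as single ends of 50 bp. After trimming with trim_galore, the authors aligned the libraries to mm10 (GRCm38) with STAR 2.6.1, discarded alignments of mapping quality 10 or less and used Rsubread with Ensembl exons for counting. The deposited values are counts per gene without normalization, with both runs of a mouse in 1 column, and each replicate number was taken as an individual mouse. The deposited gene length, in bases, is given per the file headers and is a value of the annotation. Of 55471 genes, 55144 were matched to a symbol, and positions were taken from GENCODE M21.

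Differences were tested in R 4.3.3 with edgeR 4.0.16 (its expression filter, TMM, the quasi-likelihood test), and p-values were adjusted by Benjamini-Hochberg over all genes, with calls at 0.05. Genotypes were compared in the 6 mice of each housing (17532 genes in SC and 17625 in EE). The averaged genotype effect, the housing effects and the interaction were fitted in all 12 mice with 1 coefficient per group (18251 genes). The score used log2 CPM with a prior count of 2. The procedure was tested on simulated data. Alternatives were DESeq2 1.42.0, its size factors, other filters, halved and thinned CBP-ifKO counts, a block for replicate number, fits in other sets of mice, and leaving out each mouse. The medians by gene length and GC content were added after seeing the data.

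The 7 subunits and the gene lists were chosen with earlier results of these data known. The text names all 7 subunits, other subunit genes that passed the filter, up to 4 called genes of each other list with the smallest p, and the 2 most similar genes of each subunit. Some genes that this rule names are not reported here. Insyn2a, 1 of the listed genes, was not matched. The other lists held markers of astrocytes, microglia, oligodendrocytes, endothelium, choroid plexus and thalamus. Replicate numbers were not treated as pairs in the main test.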

Additional observations from a re-analysis of the deposited data

How the results depend on the processing

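Of 658 values of the 7 subunits under the alternatives (42 results), 608 kept their direction and their side of the threshold, 38 changed sign, 10 lost a call and 2 gained 1. The calls of Gabra5 in SC, in EE and averaged, and that of Gabrd averaged, held under each alternative run. Precision was limited by 3 mice a group, and the values that changed sign were not called. Without SC control replicate 2 Gabrb2 in SC was called, with its sign unchanged. The cause was not tested.

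Without the filter on low counts, the genes called rose from 968 to 1512 in SC, from 805 to 1677 in EE, from 0 to 145 for housing in control littermates, from 2 to 247 for housing in CBP-ifKOs and from 0 to 110 for the interaction; Gabra3 in SC became -0.0074 and Gabrb2 averaged -0.00051, and Gabrb1 averaged was called. DESeq2 called 1270 in EE, 15 for housing in control littermates and 50 in CBP-ifKOs. All 12 mice in the fit gave 1293 in EE. The 6 mice of a genotype gave 1 and 21 genes for housing. With CBP-ifKO counts halved, or halved and thinned, 0 were called for housing in CBP-ifKOs, and the second put Gabrd at -0.057 for housing in control littermates and Gabrb2 at -0.030 for housing in CBP-ifKOs.

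Correlations of same-numbered deviations from the group means ranged from 0.03 to 0.30 between the control groups, against -0.25 to 0.07 for different numbers. Between other groups the same-numbered values ranged from -0.07 to 0.12. Between the EE groups they were 0.03 to 0.12 and lay above those for different numbers, -0.13 to 0.006. Whether same-numbered mice belong together was not tested. With the replicate block, 1089 genes were called in EE and 17 for housing in CBP-ifKOs, where Gabrb2 was at -0.013. The block changed no call on the 7 subunits.

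Leaving out each mouse in turn, genes called ranged from 399 to 1908 in SC, 285 to 1016 in EE, 0 to 5 for housing in control littermates and was 0 in each fit for housing in CBP-ifKOs. Subunits called ranged from 1 to 2 in SC, 1 to 2 in EE and 2 to 4 averaged. Log2 fold changes between genotypes ranged in SC from -0.036 to 0.032 for Gabra3 and -0.13 to 0.72 for Gabrb2, in EE from -0.14 to 0.024 for Gabrb1 and -0.34 to 0.21 for Gabrb2, and averaged from -0.13 to 0.30 for Gabrb2. For housing in control littermates they ranged from -0.12 to 0.034 for Gabra2, -0.016 to 0.11 for Gabra4, -0.094 to 0.10 for Gabrb1, -0.054 to 0.85 for Gabrb2 and -0.045 to 0.27 for Gabrd. For housing in CBP-ifKOs they ranged from -0.13 to 0.0089 for Gabra3, -0.034 to 0.0077 for Gabra4 and -0.15 to 0.16 for Gabrb2. Interactions ranged from -0.10 to 0.052 for Gabra2, -0.12 to 0.0052 for Gabra4, -0.036 to 0.16 for Gabrb1 and -0.85 to 0.061 for Gabrb2.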
